A study of Citrus sinensis with 6 samples.

Results

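Superoxide dismutases (SODs) were followed through 4 genes of sweet orange (Citrus sinensis), namely Cs_ont_8g006180, Cs_ont_7g013920, Cs_ont_7g013930 and Cs_ont_7g019080. They were taken as a named list, each of them carrying the gene ontology (GO) term superoxide dismutase activity in the deposited table, in which 9 of 29875 genes carry that term. Leaves of sweet orange plants raised by tissue culture were compared after 25 days in Murashige and Skoog (MS) nutrient solution. The control plants (CK, n = 3 libraries) received boron (B) at 0.25 mg/L and the B-deficient plants (T, n = 3 libraries) at 0.01 mg/L. The series' design text gives these concentrations as boron and the study's methods give them as boric acid, and the treatment field of the labels repeats 0.01 mg/L for all 6 libraries, so the groups follow the sample titles. Both groups were seedlings of the Bingtang variety regenerated through callus, with no transgene or genotype difference stated. The libraries are described as biological replicates, but whether each came from a separate plant or a pool is not stated, so each p-value reflects the variation among these libraries alone, which may be technical. The titles name leaf blades in CK and leaves in T, and a difference in the tissue taken cannot be told apart from the B treatment.

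Superoxide dismutases convert the superoxide radical, a by-product of photosynthetic and respiratory electron transport, into oxygen and hydrogen peroxide, which peroxidases and catalases then remove. Plants hold copper/zinc, iron and manganese types, which differ in their metal and in the compartment where they work. In Arabidopsis, copper/zinc enzymes work in the cytosol and in the chloroplast stroma and their transcripts are cut by a microRNA when copper is short, while iron enzymes work in the chloroplast, among them a pair bound to the nucleoid, the body that holds chloroplast DNA. Boron is known in plants mainly for cross-linking the pectin of the cell wall.

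The expression level is given as FPKM, in which read counts are divided by transcript length and library size, so that levels can be set side by side between genes. Reads were recovered from the steps of the FPKM values and came to 17689284 to 24026258 per library, at which 1 read on a transcript of 1 kb was worth 0.0414 to 0.0563 FPKM. Across the genes, libraries of the same group correlated at r = 0.875 to 0.940 and libraries of different groups at r = 0.873 to 0.958, the highest value being that of CK1 with T3, so the groups did not separate. Leaf markers were abundant throughout, and the summed level of the 13 chlorophyll-binding genes was 12081 to 15483 FPKM in CK, against 7582 FPKM in T1, 14099 FPKM in T2 and 7811 FPKM in T3. The summed level of 36 xylem development genes was 210 to 366 FPKM in CK and 352 to 433 FPKM in T, but 209 to 357 and 239 to 271 FPKM without the single gene Cs_ont_6g011110. That of 195 mitotic cell cycle genes was 2472 to 3232 FPKM in CK and 2622 to 3494 FPKM in T. The part of these differences between libraries in the results was not tested. The cell type field of the labels reads nucleus for all 6 libraries, while the tissue field names the leaf blade. As bulk tissue was sequenced, fewer cells of a type and less RNA per cell cannot be told apart.

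Among the 4 SOD genes, one was lower and one higher under B deficiency by the study's cut-offs for a differentially expressed gene (DEG), 2-fold or more with an unadjusted p no higher than 0.05, applied here to a limma fit of log2(FPKM + 1). The copper/zinc-annotated chloroplast gene Cs_ont_8g006180 was 3.19-fold lower in T by the group means, and the nucleoid-annotated Cs_ont_7g013930 was 2.36-fold higher. The direct neighbour of the latter, Cs_ont_7g013920, averaged 1.87-fold higher without meeting the criterion, and Cs_ont_7g019080 differed by less than the spread between libraries. The count of 2 DEGs of 4 stands beside 2.36% of the 16421 genes tested that met the criterion (209 or 1.27% higher and 178 or 1.08% lower in T). The members were chosen with earlier results of these data known, so nothing is read from this contrast. None of the 4 passed an adjusted p of 0.05 (limma, Benjamini-Hochberg over all genes tested), a threshold that 1 gene in the table (0.00609%) passed, while 785 genes (4.78%) were under an unadjusted p of 0.05.

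Cs_ont_8g006180 is the member of the 4 whose annotation names copper ion and zinc ion binding. It is further annotated to the chloroplast stroma and the apoplast, to the responses to copper ion, sucrose, salt and ultraviolet light, and to gene silencing by microRNA. Its level was 22.2 FPKM in CK1, 43.8 FPKM in CK2 and 88.6 FPKM in CK3, against 12.5 FPKM in T1, 21.3 FPKM in T2 and 14.6 FPKM in T3. Every T library lay below every CK library, but CK1 and T2 were close, and the CK libraries were spread far more widely than the T libraries. The means were 51.5 ± 33.9 FPKM in CK and 16.2 ± 4.61 FPKM in T (SD, n = 3 each), from 296 to 2852 reads per library.

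The log2 fold change of Cs_ont_8g006180 from CK to T on the log2(FPKM + 1) scale was -1.43 (SE 0.49, 95% confidence interval -2.61 to -0.26), with an unadjusted p of 0.0237 and an adjusted p of 0.923 by limma. The exact two-sided permutation test of its mean FPKM gave p = 0.1, the smallest that 3 against 3 libraries allow. Groups that did not overlap were found in 8.17% of all genes tested, with T entirely below CK in 3.71%. The DEG call was lost on leaving out some single libraries, though the change stayed above 2-fold except without CK3. The log2 fold change was -0.94 without CK3, which falls short of 2-fold, and the call was lost on its p-value at -1.44 without CK2, -1.28 without T1 and -1.38 without T3.

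The other 3 listed genes are annotated to the chloroplast nucleoid and to neither copper nor zinc binding, and none of the 9 genes with the SOD term carries an iron, manganese or mitochondrion term. Cs_ont_7g013920 and Cs_ont_7g013930 have consecutive identifiers and equal numbers of GO terms, 65 each, with the response to ultraviolet light among them. Cs_ont_7g013920 was the most abundant of the 4 in both groups. Its level was 142 FPKM in CK1, 74.8 FPKM in CK2 and 44.1 FPKM in CK3, against 263 FPKM in T1, 124 FPKM in T2 and 102 FPKM in T3. T1 was the highest library, and T2 and T3 fell within the CK range, so that the groups overlapped. The means were 87.1 ± 50.3 FPKM in CK and 163 ± 87.3 FPKM in T (SD, n = 3 each), with a log2 fold change of 0.93 (SE 0.52, 95% confidence interval -0.31 to 2.17, limma adjusted p = 0.999) and an exact permutation p of 0.3. In this fit the interval includes no change, although it also takes in changes above 4-fold. Without CK1, its highest control library, the log2 fold change was 1.36, which met the DEG criterion.

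Its neighbour Cs_ont_7g013930 was far less abundant. Its level was 13.4 FPKM in CK1, 11.7 FPKM in CK2 and 9.76 FPKM in CK3, against 20.1 FPKM in T1, 46.1 FPKM in T2 and 16.1 FPKM in T3. The T libraries lay above the CK libraries, with T2 standing far above T1 and T3, and an order of this kind was seen in 4.46% of all genes tested. The means were 11.6 ± 1.81 FPKM in CK and 27.4 ± 16.2 FPKM in T (SD, n = 3 each), from 440 to 2028 reads. The log2 fold change was 1.04 (SE 0.38, 95% confidence interval 0.12 to 1.96), with an unadjusted p of 0.0320 and an adjusted p of 0.965 by limma and an exact permutation p of 0.1. The DEG call was lost without T2, where the log2 fold change was 0.60, and without CK2 or CK3, at 1.05 and 0.93.

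Cs_ont_7g019080 is annotated to the nucleoid but not to the response to ultraviolet light, and was the least abundant of the 4. Its level was 6.08 FPKM in CK1, 4.71 FPKM in CK2 and 6.43 FPKM in CK3, against 6.51 FPKM in T1, 9.28 FPKM in T2 and 5.44 FPKM in T3. The groups overlapped, with T2 the only library that stood clear of the rest. The means were 5.74 ± 0.904 FPKM and 7.08 ± 1.98 FPKM (SD, n = 3 each), and the log2 fold change was 0.24 (SE 0.24, 95% confidence interval -0.33 to 0.81, limma adjusted p = 0.999), with an exact permutation p of 0.4. With 100 to 230 reads per library, this gene had the thinnest coverage of the 4, and the interval takes in changes short of 2-fold in either direction.

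**Figure D1:**
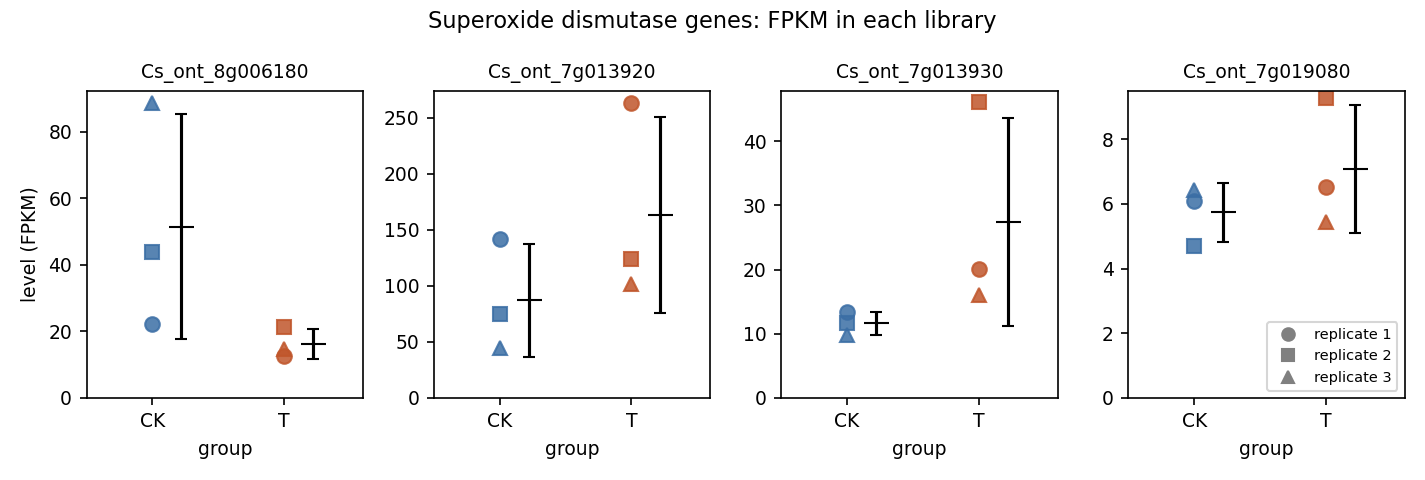
Level of each of the 4 SOD genes in FPKM (y axis, a scale of its own for each gene) in the CK and T libraries; points are libraries with 1 shape per replicate number, and bars give the mean ± SD. The T points of Cs_ont_8g006180 lie at 12.5 to 21.3 FPKM, below its CK points, those of Cs_ont_7g013930 at 16.1 to 46.1 FPKM, above its CK points, and the groups of the other genes overlap.

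The order of the levels differed between the groups below the first place. In CK, Cs_ont_7g013920 came first and Cs_ont_8g006180 second, with ranges that overlapped, followed by Cs_ont_7g013930 and Cs_ont_7g019080, whose ranges overlapped neither each other nor those above. In T, Cs_ont_7g013930 had the second highest mean and Cs_ont_8g006180 the third, with overlapping ranges, and Cs_ont_7g019080 again lay below the others. Within a library, the ratio of Cs_ont_8g006180 to Cs_ont_7g013930 in FPKM was 1.66 in CK1, 3.75 in CK2 and 9.08 in CK3, but 0.620 in T1, 0.463 in T2 and 0.908 in T3. The copper/zinc-annotated gene was thus the more abundant of the pair in each CK library and the less abundant in each T library.

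As a share of the summed FPKM of the 4 genes, Cs_ont_8g006180 took 12% in CK1, 32.5% in CK2 and 59.5% in CK3, against 4.14% in T1, 10.7% in T2 and 10.6% in T3. Cs_ont_7g013920 took 77.4%, 55.4% and 29.6% of the sum in CK1, CK2 and CK3 and 87.0%, 61.7% and 73.8% in T1, T2 and T3. The CK libraries thus ran from one dominated by the nucleoid gene to one in which the copper/zinc gene held the larger share, and the T libraries all lay towards the nucleoid gene. The sum itself was 156 ± 25.3 FPKM in CK and 213 ± 82.6 FPKM in T (SD, n = 3 each), with T3 at 138 FPKM inside the CK range of 135 to 184 FPKM.

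**Figure D2:**
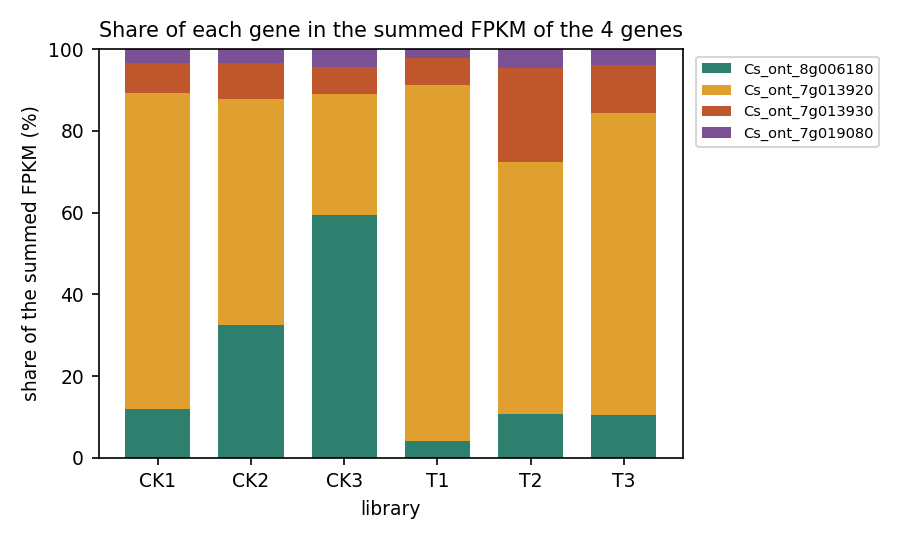
Share of each gene in the summed FPKM of the 4 SOD genes (y axis, percent) in each of the 6 libraries (x axis). The share of Cs_ont_8g006180 was 34.7 ± 23.8% in CK and 8.46 ± 3.74% in T, and that of Cs_ont_7g013920 was 54.1 ± 23.9% and 74.2 ± 12.7% (mean ± SD, n = 3 each).

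The members were also compared with each other by the ratio of 2 genes within a library. Apart from the added 1, this ratio does not depend on how libraries are scaled. The log2 ratio of Cs_ont_8g006180 to Cs_ont_7g013930 was lower in T than in CK by 2.47 (CK 1.86 ± 1.19, T -0.62 ± 0.47, SD, n = 3 each), and the groups did not overlap. T lay entirely below CK for the first gene and entirely above it for the second, so this separation was fixed in advance. It adds no support for the opposite directions. The ratio of Cs_ont_8g006180 to Cs_ont_7g019080 was lower by 1.68 on the log2 scale (CK 2.76 ± 0.96, T 1.08 ± 0.22), again without overlap. For each of these, the exact two-sided permutation p was 0.1, the smallest possible, and 0.2 after Benjamini-Hochberg adjustment over the 6 pairs, so that no pair could pass 0.05 in this exact test.

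Against Cs_ont_7g013920, the log2 ratio of Cs_ont_8g006180 was lower in T by 2.36 (CK -0.80 ± 1.81, T -3.16 ± 0.98), but the groups overlapped, with an exact p of 0.2 (adjusted 0.3). Cs_ont_7g013920 was 6.43-fold as abundant as Cs_ont_8g006180 in CK1, 1.71-fold in CK2 and 0.498-fold in CK3, against 21.1-fold in T1, 5.79-fold in T2 and 6.97-fold in T3. CK1 thus lay within the range of the T libraries. Across the CK libraries these genes ran in opposite order, and over the 6 libraries their log2(FPKM + 1) values correlated at r = -0.89, a description over points that share the group difference.

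The adjacent genes did not keep a fixed ratio. Cs_ont_7g013920 was 10.6-fold as abundant as Cs_ont_7g013930 in CK1, 6.40-fold in CK2 and 4.52-fold in CK3, against 13.1-fold in T1, 2.68-fold in T2 and 6.33-fold in T3. The log2 ratio differed by -0.11 from CK to T with overlapping groups and an exact p of 1.0, and its direction turned to 0.22 without CK1 and to 0.46 without T2. Their levels correlated at r = 0.50 over the 6 libraries, with T1 the highest library for Cs_ont_7g013920 and T2 for Cs_ont_7g013930. Cs_ont_7g013930 followed Cs_ont_7g019080 more closely, at r = 0.81, and its ratio to that gene was 2.20, 2.48 and 1.52 in CK1, CK2 and CK3 against 3.09, 4.96 and 2.97 in T1, T2 and T3. On the log2 scale this ratio was higher in T by 0.80 without overlap (exact p 0.1, adjusted 0.2). Whether the adjacent genes share reads was not tested, and the strand setting of the read counting is not given in the sources used here, so that reads of overlapping genes on opposite strands cannot be told apart.

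**Figure D3:**
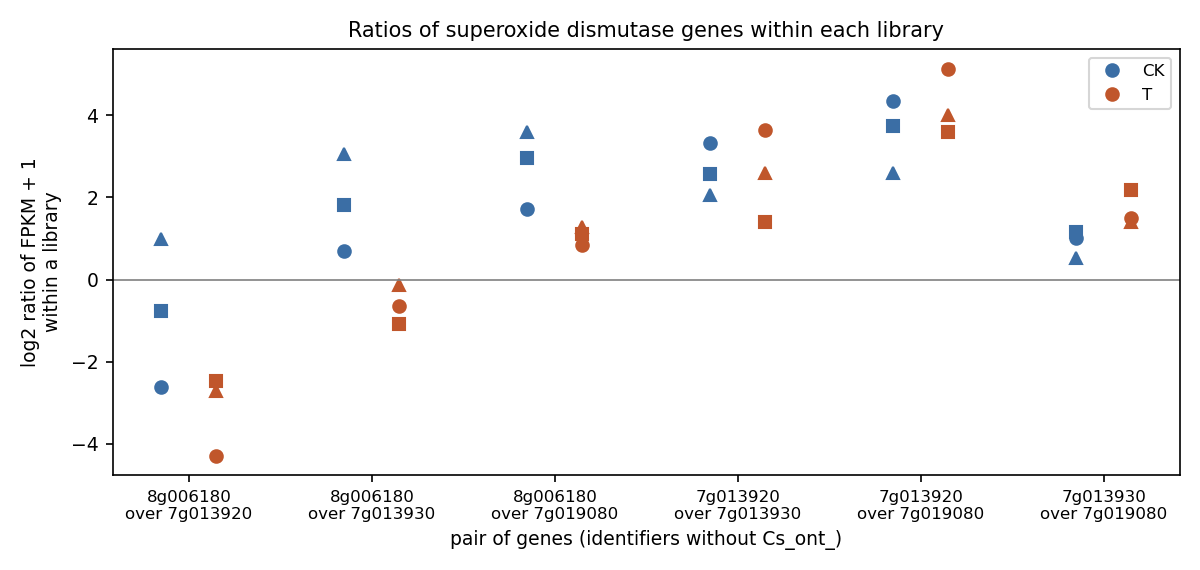
Log2 ratio of FPKM + 1 between 2 SOD genes within a library (y axis) for the 6 pairs (x axis), with CK and T libraries as points of the replicate shapes circle, square and triangle for 1, 2 and 3. The T points of Cs_ont_8g006180 over Cs_ont_7g013930 lie at -1.08 to -0.13 and the CK points at 0.69 to 3.06, while the points of the adjacent pair, Cs_ont_7g013920 over Cs_ont_7g013930, overlap.

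Apart from the adjacent SOD pair itself, the 2 nearest genes on each side of the members in identifier order gave no DEG. Of all genes tested, 2.36% met that criterion. With so few neighbours tested, nothing is read from this count. Cs_ont_7g013910, before the pair, reached at most 0.103 FPKM and Cs_ont_7g013900 at most 1.40 FPKM, and neither passed the filter of 1 FPKM in 3 libraries. After the pair, Cs_ont_7g013940 had 88.1 ± 14.5 FPKM in CK and 79.6 ± 14.4 FPKM in T (log2 fold change -0.14, SE 0.21), and Cs_ont_7g013950, annotated as a cysteine-type peptidase, differed by 0.31 (SE 0.19) on the log2 scale. Around Cs_ont_8g006180, the log2 fold change was -0.00 (SE 0.18) for Cs_ont_8g006170, -0.41 (SE 0.36) for the DNA-binding regulator Cs_ont_8g006190 and -0.03 (SE 0.26) for the ribosome constituent Cs_ont_8g006200. Around Cs_ont_7g019080, it was 0.26 (SE 0.26) for Cs_ont_7g019060 and -0.06 (SE 0.17) for Cs_ont_7g019100. Cs_ont_8g006160, Cs_ont_7g019070 and Cs_ont_7g019090 did not pass the filter.

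Among the 20 genes within 10 places of the adjacent SOD pair, 14 were tested, of which 12 had a log2 fold change above 0 and 2 below it, beside 53.2% of all genes tested above 0. The only DEG among them, beside 2.36% of all genes, was Cs_ont_7g013990, 7 places after Cs_ont_7g013920 and annotated to glutamate dehydrogenase activity and copper ion binding, which is named here after its values were seen. Its level was 41.3 FPKM in CK1, 20.5 FPKM in CK2 and 13.3 FPKM in CK3, against 92.5 FPKM in T1, 45.1 FPKM in T2 and 37.3 FPKM in T3. The groups overlapped, since T3 lay below CK1, and the levels of both genes correlated at r = 0.99 over the 6 libraries. The log2 fold change was 1.22 (SE 0.49, limma adjusted p = 0.999).

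**Figure D4:**
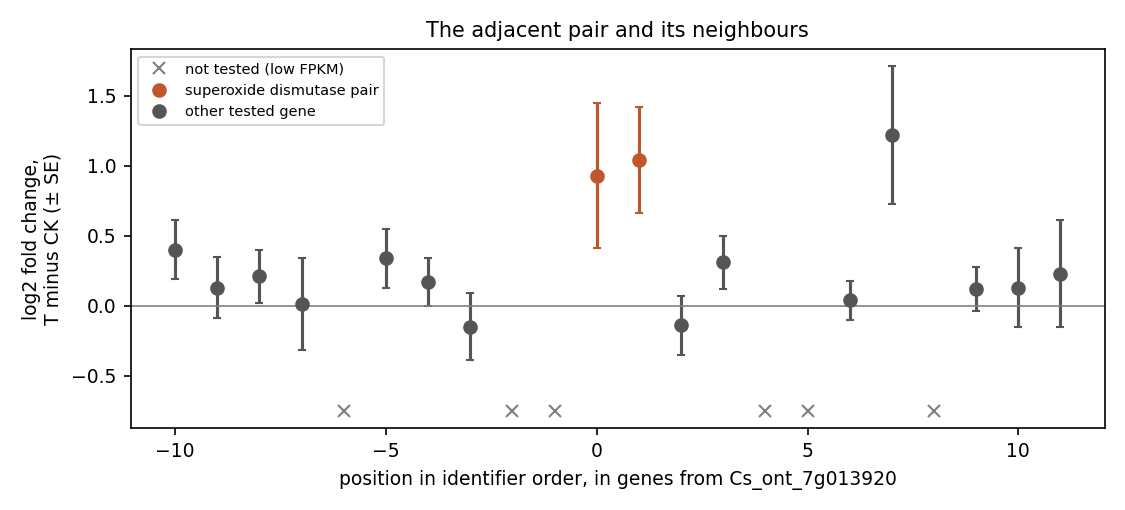
Log2 fold change from CK to T (y axis, ± SE) of the genes around the adjacent SOD pair, by place in identifier order from Cs_ont_7g013920 (x axis, in genes); crosses mark genes that did not pass the filter. The pair stands at 0.93 and 1.04, its tested direct neighbour after the pair at -0.14, and Cs_ont_7g013990, at place 7, at 1.22.

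A further 5 genes carry the SOD term. Cs_ont_3g017650, Cs_ont_3g017660, Cs_ont_3g017710 and Cs_ont_3g017750 lie within 11 consecutive genes, are annotated to copper and zinc binding and the cytosol, and 3 of them were at 0 in all 6 libraries. Cs_ont_3g017660 had 2 reads in CK1 and 0 in CK2 and CK3, against 108 in T1, 15 in T2 and 3 in T3. Its highest level was 3.99 FPKM in T1, it did not pass the filter and no fold is given, since the CK libraries were at or under 3 reads. Cs_ont_5g014800, annotated to copper and zinc binding, had 18.7, 12.7 and 15.4 FPKM in CK1, CK2 and CK3 and 15.0, 14.5 and 15.5 FPKM in T1, T2 and T3. Its means were 15.6 ± 3.03 and 15.0 ± 0.514 FPKM, and the log2 fold change of -0.04 (SE 0.18, 95% confidence interval -0.47 to 0.39) stayed short of 2-fold at both ends of its interval. Cs_ont_5g014800 thus ran from 12.7 to 18.7 FPKM in the libraries where Cs_ont_8g006180 ran from 12.5 to 88.6 FPKM. The reason for the wider spread of the latter was not tested.

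The genes whose levels were most like each member were searched among 12543 genes with a mean of at least 5 FPKM, by Pearson r of log2(FPKM + 1) over the 6 libraries. For Cs_ont_8g006180 these were Cs_ont_6g019800, which has no annotation in the table, at r = 0.993, and Cs_ont_3g017770 at r = 0.992. Cs_ont_3g017770 had 22.2, 33.4 and 65.9 FPKM in CK1, CK2 and CK3 and 12.7, 20.3 and 12.4 FPKM in T1, T2 and T3, without overlap of the groups, and was a DEG (log2 fold change -1.26, SE 0.41, limma adjusted p = 0.898). It lies 2 places after the run of 4 SOD-annotated genes with Cs_ont_3g identifiers, and its only annotation is the KEGG peroxisome pathway, which the 4 listed SOD genes also carry. Of that pathway's 74 tested genes, counted after these values were seen, 6 (8.11%) were DEGs, beside 2.36% of all genes, 2 higher and 4 lower in T. Among these 6 are 2 of the listed SOD genes and Cs_ont_3g017770, the genes that prompted the count, so nothing is read from this share.

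For Cs_ont_7g013920 the closest genes were Cs_ont_5g022880 (r = 0.998) and Cs_ont_1g019640 (r = 0.995), both without annotation. For Cs_ont_7g013930 they were Cs_ont_1g024660, a translation initiation factor gene (r = 0.993), and Cs_ont_4g004880, a sugar phosphatase gene (r = 0.979), and for Cs_ont_7g019080 Cs_ont_6g021560, a gene with a phosphatase and reductase annotation, and Cs_ont_9g002760, a GTPase gene, both at r = 0.997. With 6 libraries such values were common, and 195, 154, 95 and 367 genes exceeded r = 0.9 with Cs_ont_8g006180, Cs_ont_7g013920, Cs_ont_7g013930 and Cs_ont_7g019080, respectively. None of the most similar genes was shared between members.

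Copper/zinc SODs receive copper from a dedicated chaperone. Cs_ont_5g041000, the only gene in the table annotated with SOD copper chaperone activity, had 12.7 FPKM in CK1, 11.2 FPKM in CK2 and 27.2 FPKM in CK3, against 7.41 FPKM in T1, 11.6 FPKM in T2 and 11.1 FPKM in T3. It was highest in CK3 and lowest in T1, as was Cs_ont_8g006180, and the groups overlapped. In CK2 it lay below T2, while Cs_ont_8g006180 had 43.8 FPKM in CK2 and 21.3 FPKM in T2. The log2 fold change of Cs_ont_5g041000 was -0.62 (SE 0.36, 95% confidence interval -1.48 to 0.23, limma adjusted p = 0.999). Its r with Cs_ont_8g006180 was 0.87 over the 6 libraries, short of the r = 0.9 that 195 genes exceeded. The other copper chaperone genes differed little, at -0.07 (SE 0.15) for Cs_ont_8g015140 and 0.10 (SE 0.19) for Cs_ont_4g014500 on the log2 scale, and so did the copper transporter gene Cs_ont_4g023190 at -0.11 (SE 0.14). Of 10 tested genes annotated to the response to copper ion, 1 was a DEG, which was Cs_ont_8g006180 itself. Of 86 tested genes annotated to copper ion binding, a list added after the data were seen, 3 (3.49%) were DEGs, beside 2.36% of all genes tested. In that list 64 genes were higher and 22 lower in T, beside 8733 higher and 7688 lower of all genes tested, with a median log2 fold change of 0.20 beside 0.02.

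Superoxide is formed outside the membrane by NAD(P)H oxidases, of which 3 of 4 annotated genes were tested. Cs_ont_3g015480 had 0.208, 0.615 and 0.193 FPKM in CK1, CK2 and CK3 and 1.35, 2.17 and 1.16 FPKM in T1, T2 and T3. The T libraries lay above the CK libraries at a low level, and the log2 fold change of 0.93 (SE 0.29, limma adjusted p = 0.883) is held down by the added 1 and missed the criterion. The more abundant Cs_ont_8g014980 ranged from 1.47 FPKM in CK3 to 58.8 FPKM in T1 with overlapping groups (log2 fold change 0.93, SE 1.07), and Cs_ont_5g048690 differed by 0.28 (SE 0.37).

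Hydrogen peroxide, the product of SOD, is removed by catalase, ascorbate peroxidase, glutathione peroxidase and peroxiredoxin, among other enzymes. In these 4 lists no gene met the DEG criterion, which 2.36% of all genes tested met. Peroxidases outside these lists were not part of this count. The catalase gene Cs_ont_3g001020 had 3266 ± 1045 FPKM in CK and 3095 ± 145 FPKM in T, and the most abundant ascorbate peroxidase, Cs_ont_8g004040, had 251 ± 32.3 and 281 ± 35.0 FPKM. The glutathione peroxidase Cs_ont_7g014640 had 1501 ± 596 and 1445 ± 407 FPKM and the peroxiredoxin Cs_ont_6g009250 had 138 ± 18.4 and 135 ± 12.4 FPKM (SD, n = 3 each). Each of these 4 differences was smaller than the spread between libraries, with log2 fold changes of -0.03, 0.16, -0.03 and -0.02. For the reductases that renew ascorbate and glutathione, the log2 fold change was 0.17 for the monodehydroascorbate reductase Cs_ont_6g007670, -0.29 for Cs_ont_2g028980 of that list, 0.41 for the dehydroascorbate reductase Cs_ont_7g004500, and 0.25, 0.11 and -0.02 for the glutathione-disulfide reductases Cs_ont_9g012990, Cs_ont_5g029590 and Cs_ont_5g012990.

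The 8 enzyme lists other than SOD cover superoxide formation and part of peroxide removal. Of their 26 genes, 20 were tested, 11 were higher and 9 lower in T. By limma, 0 were DEGs (2.36% of all genes), with 1 under an unadjusted p of 0.05. That gene was Cs_ont_3g015480, whose log2 fold change of 0.93 is held down by the added 1. The median log2 fold change of the 20 tested genes was 0.07 and their range -0.29 to 0.93. The upper end belongs to the oxidases, of which Cs_ont_3g015480 was 4.60-fold higher in T by its group means, more than Cs_ont_7g013930, and Cs_ont_8g006180 at -1.43 lay below the lower end, a comparison of sizes without a test. In the wider list of genes annotated to the response to oxidative stress, which holds the 4 SOD genes, 6 of 265 tested genes (2.26%) were DEGs, a share near that of all genes, with a median of -0.01. Its other DEGs included Cs_ont_5g032800 (33.5 ± 11.7 against 124 ± 52.1 FPKM in CK and T), Cs_ont_6g001970 (17.0 ± 10.9 against 56.0 ± 22.7 FPKM) and Cs_ont_4g009570 (14.2 ± 15.4 against 1.48 ± 0.447 FPKM). Of 23 tested chloroplast nucleoid genes, a list likewise added after the data were seen, 1 (4.35%) was a DEG, beside 2.36% of all genes, and their median was -0.05. That DEG was Cs_ont_7g013930, a listed member, so nothing is read from this share.

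**Figure D5:**
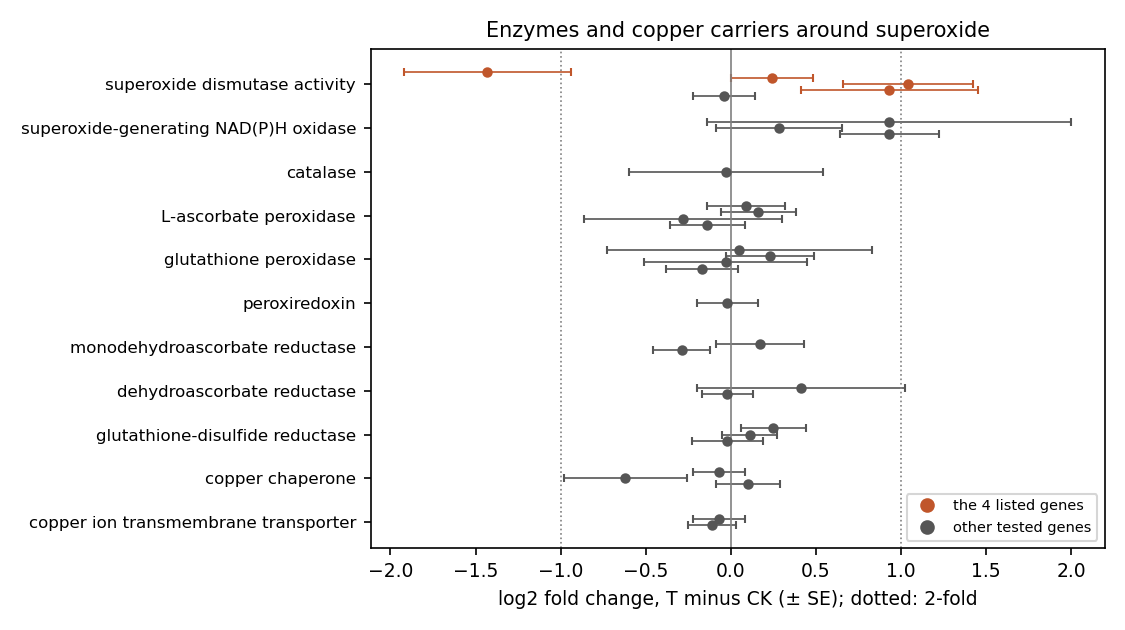
Log2 fold change from CK to T (x axis, ± SE) of the tested genes of each list of enzymes and copper carriers (y axis), with dotted lines at 2-fold in either direction. The SOD genes run from -1.43 to 1.04, the enzyme lists other than SOD from -0.29 to 0.93, and the copper carriers from -0.62 to 0.10.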

How the data were processed

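Leaf RNA from 3 CK and 3 T libraries was sequenced. Per the labels and the study's methods, the authors used fastp for trimming, HISAT2 for alignment and HTSeq for gene counts, and deposited FPKM values. The sources used here name neither the genome build nor the strand setting. The deposited table also holds group averages and the authors' own comparison (log2 fold change, p-value and call, made with DESeq on the read counts), none of which was used, so that only the cut-offs for a DEG are the study's.

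FPKM values were tested with limma 3.58.1 (R 4.3.3; lmFit, eBayes with trend) on log2(FPKM + 1), for genes with at least 1 FPKM in at least 3 libraries, 16421 of 29875, with Benjamini-Hochberg adjustment over these genes. Fold changes on this scale understate changes of low genes. Exact permutation tests and ratios were run with Python 3.11.15, numpy 2.4.6 and scipy 1.17.1. Dividing out the steps of the FPKM values gave whole gene lengths (within 0.001 base) for 99.99% of 22740 genes above 0, and with them the reads behind each value, up to a common factor that was put back in 416 genes. These reads entered an alternative fit (limma voom with TMM scaling). The limma step was tested on simulated data.

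The named genes were the 4 listed genes, the other genes with the SOD term, the 2 nearest genes on each side, the 2 most similar genes, the tested genes of the short enzyme lists, and the most abundant genes and DEGs of the other lists. Lists were taken by GO identifier from the table. The members and lists were chosen with earlier results of these data known. None of the identifiers was found in the reference gene table, so no names, positions or sequences are given. The alternatives were other pseudocounts, filters, scalings and library weights, a replicate block and leaving out each library.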

Additional observations from a re-analysis of the deposited data

How the results depend on the processing

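Over 14 alternative fits, Cs_ont_8g006180 met the DEG criterion in 10 (adjusted p 0.224 to 1.0, limma), Cs_ont_7g013930 in 10 (0.314 to 1.0), Cs_ont_7g013920 in 2 (0.282 to 1.0) and Cs_ont_7g019080 in 0 (0.616 to 1.0), and none of the 4 changed direction. Leaving out 1 library at a time gave log2 fold changes of -1.92 to -0.94 for Cs_ont_8g006180, 0.52 to 1.36 for Cs_ont_7g013920, 0.60 to 1.33 for Cs_ont_7g013930 and 0.05 to 0.39 for Cs_ont_7g019080. For Cs_ont_5g014800 it gave -0.17 to 0.09, reversed without CK1 at 0.09, and for the log2 ratio of Cs_ont_7g013920 to Cs_ont_7g013930 -0.66 to 0.46, reversed without CK1 (0.22) and without T2 (0.46). Library weights estimated by limma, which gave T1 a weight of 6.29 and the others 0.48 to 0.96, moved Cs_ont_7g013920 to 1.41, past the criterion, and Cs_ont_7g013930 to 0.79, short of it.

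The 1 gene higher in T at an adjusted p under 0.05 became 8 with library weights, 0 with voom on the recovered reads, 0 with no filter, 0 with the replicate block and 0 to 2 without 1 library, and the 0 genes lower became 4 with library weights. The 209 DEGs higher in T became 567 with library weights, 137 with a filter of 5 FPKM and 121 to 398 without 1 library, and the 178 DEGs lower became 363 with library weights and 120 to 396. The 6 DEGs of all 16 antioxidant lists together became 7 with a pseudocount of 0.1, 10 with the replicate block and 4 to 12 without 1 library. The cause of these shifts was not tested.

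Deviations of same-numbered libraries from their group means correlated at 0.28, 0.21 and -0.04, and those of different-numbered libraries at -0.40 to 0.23. No pairing is stated, so the numbers were not taken to pair the samples, but these values do not settle whether they do. With the replicate number as a block, the log2 fold changes stood at -1.43 for Cs_ont_8g006180 and 0.93 for Cs_ont_7g013920, and no DEG call among the 4 changed. The unadjusted limma p of Cs_ont_7g013920 was then 0.00575, against 0.119 without the block (adjusted p 0.462 and 0.999), with T above CK in 3 of 3 same-numbered pairs. With 3 libraries a group, the exact tests cannot go below 0.1, and the wide spread within CK limits each comparison of Cs_ont_8g006180 and Cs_ont_7g013920.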
